A study of Mus musculus with 104 samples.

Results

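D3 is a small interfering RNA (siRNA) against Hao1, the gene of hydroxyacid oxidase 1, a liver peroxisomal enzyme that turns glycolate into glyoxylate. It carries a GNA-isocytidine (GNA-isoC) at guide position 5. GNA, glycol nucleic acid, is an acyclic nucleotide without ribose, and isocytosine is a cytosine whose amino and carbonyl groups are exchanged. The libraries described here are the 4 that carry the treatment label of D3 at 50 nM, among 96 siRNA-treated and 8 mock-transfected libraries in the series, and they were compared with the 8 mock libraries. All came from primary mouse hepatocytes, liver parenchymal cells in culture, transfected with a lipid reagent in multi-well plates and collected after 24 h. The series holds 6 siRNAs at 0.1, 1, 10 and 50 nM with 4 libraries each. The question was whether a GNA or GNA isonucleotide in the seed region lowers off-target regulation. For comparison 3 further groups are used, D3 at 10 nM, the parent siRNA D1 at 50 nM, which has no GNA at that position, and D2 at 50 nM, with a GNA-cytidine (GNA-C) there. Each has 4 libraries, and D1, D2 and D3 share the same base sequence. The study describes all 3 as conjugates with an N-acetylgalactosamine (GalNAc) ligand, with a modified ribose in every nucleotide that is not GNA. The labels do not say whether libraries of a group came from separate animals or cell isolations, so p-values measure the spread between these libraries, which may be technical.

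An siRNA guide strand is loaded into an Argonaute protein and directs it to complementary mRNA. Full pairing leads to cleavage of the target, whereas pairing of the seed alone (guide positions 2 to 8) with a 3′-UTR gives weaker, microRNA-like repression of many mRNAs. Hepatocytes make most plasma proteins, clotting factors, cholesterol and fatty acids, and in culture they lose part of this program and take up cytoskeletal and matrix genes.

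The guide and the places where it matches are shown because they define which changes could be seed-driven. The Hao1 site lies in GRCm39 at chr2:134340220-134340242 on the minus strand, in exon 8 of Hao1 (ENSMUSG00000027261), within coding sequence. Capitals mark the seed (positions 2 to 8) in the guide and passenger, and its complement in the site, and the guide was derived as the reverse complement of the site.
Hao1 site: cagaatgtgaaagtcATCGACAa
guide: uUGUCGAUgacuuucacauucug
passenger: gAAUGUGAaagucaucgacaa

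Hao1 itself followed the labels. Its level in the D3 libraries was 1.24, 0.58, 0.998 and 0.391 CPM (gene counts relative to library size after TMM scaling), from 5, 3, 5 and 2 counts. In mock it ranged from 27.8 to 38.6 CPM, with a median of 33.9. The groups were far apart, with a log2 fold change of −5.38 ± 0.21 (SE, edgeR quasi-likelihood test, adjusted p = 1.05e-22). Gapdh, a glycolytic enzyme often used for scaling, was slightly lower with D3, at 644 to 672 CPM against 687 to 778 CPM in mock, a log2 fold change of −0.16 ± 0.04 (adjusted p = 0.00552).

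The response reached far beyond Hao1. Of 11331 genes tested, 3209 (28.3%) had an adjusted p under 0.05, of which 1532 (13.5%) were higher and 1677 (14.8%) lower with D3 than in mock. Most changes were small: 83 genes (0.733%) rose and 99 (0.874%) fell by at least 1 on the log2 scale, and 487 (4.3%) rose and 451 (3.98%) fell by at least 0.5. All 4 D3 libraries lay above all 8 mock libraries for 736 genes (6.5%) and below them for 945 genes (8.34%). The median log2 fold change over all genes tested was 0.01. Libraries held 4024546 to 5158638 gene counts in the D3 group and 3409963 to 5308584 in mock, and the first principal component, with 32.3% of the variance, placed the D3 libraries at 19.6 to 24.4 and mock at −13.9 to −7.74. Mock replicate 8 stood apart on the second component (10.9% of the variance) at −22.3, and mock replicates 1 and 2 at 14.5 and 15.5. With these 3 mock libraries left out, an alternative chosen after seeing the data, 3192 genes were called.

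**Figure D1:**
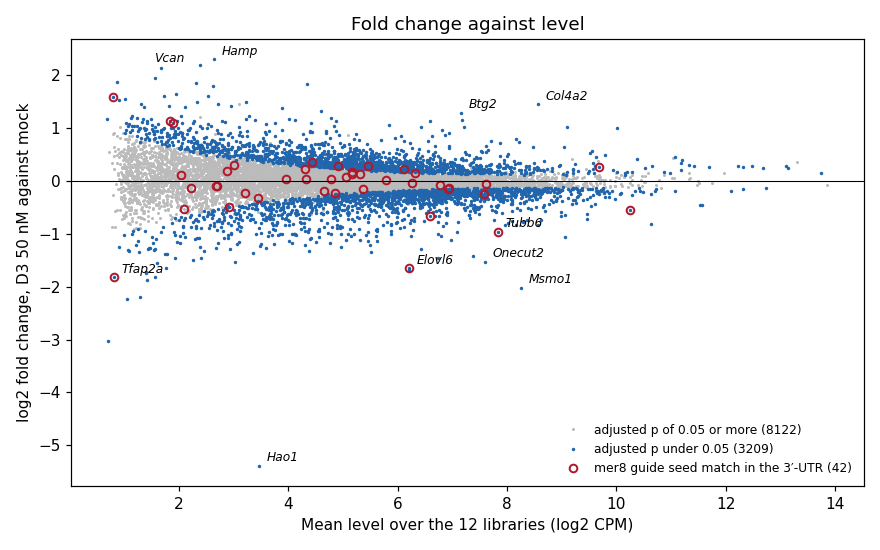
Log2 fold change of D3 at 50 nM against mock (vertical axis) against the mean level in log2 CPM over the 12 libraries (horizontal axis), 1 point a gene, blue where the adjusted p was under 0.05. Called genes lie on both sides of 0 at all levels, and most of the 42 genes with the strongest guide seed match (circles) lie near 0, with Elovl6 at −1.65 among those far below it.

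Genes with a seed match to the guide made up little of this response. Matches were searched in the longest annotated 3′-UTR of 10712 tested genes other than Hao1, of which 1502 (14%) were higher and 1631 (15.2%) lower. Among the 42 mer8 genes, which hold ATCGACA followed by A, 8 were higher and 7 lower, with a median log2 fold change of −0.01. Larger falls were more frequent among them: 5 of the 42 were lower by at least 0.5, against 403 of 10406 genes without a match. In the 3′-UTR of the canonical transcript it was 3 of 30 mer8 genes, against 403 of 10423 without a match. Of the 157 mer7m8 genes, which hold ATCGACA, 14 (8.92%) were higher and 30 (19.1%) lower, with a median of 0.00. When only each gene's canonical transcript was searched, 13 (11.4%) of 114 mer7m8 genes were higher and 28 (24.6%) lower, with a median of −0.03, against 14% and 15.2% of the 10655 genes with such a 3′-UTR. Of the 107 mer7A1 genes, which hold TCGACA followed by A, 23 were higher and 15 lower, with a median of −0.01. Any match in the canonical 3′-UTR was held by 232 genes, of which 17.2% were higher and 19% lower. Over the 306 genes with any match in the longest one, 14.7% were higher and 17% lower, against 14% and 15.2% of the 10406 genes with none. Of the 1631 genes that fell, 52 (3.19%) held a match, against 2.86% of all 10712. Among genes lower by at least 0.5 the share was 3.13% (13 of 416), and among those lower by at least 1 it was 3.57% (3 of 84). The remaining 1579 genes that fell had no seed match in that 3′-UTR. Runs complementary to the guide were also counted along the whole canonical mRNA. Of mRNAs with a run of at least 10, 11 and 12 bases, 141 of 711, 48 of 205 and 13 of 39 were lower. With at least 6 bases it was 1627 of 10639. For the passenger, runs of at least 10, 11 and 12 bases gave 73 of 508, 19 of 123 and 7 of 36. Whether these longer runs drove the falls was not tested.

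**Figure D2:**
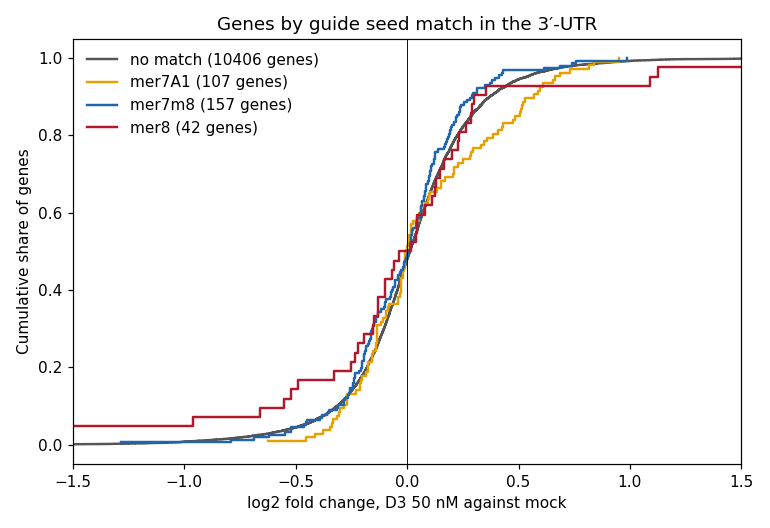
Cumulative share of genes (vertical axis) by log2 fold change of D3 at 50 nM against mock (horizontal axis), for genes grouped by their strongest guide seed match in the 3′-UTR. The 4 curves cross near 0, with medians from −0.01 to 0.01, and the mer8 curve (42 genes) runs above the others on the left, where 7 of its genes were called lower.

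The seed-matched genes with the largest falls are shown with their sites, 30 bases each from the 3′-UTR, with the match in capitals.
Tfap2a, mer8: tttttaatcaaATCGACAAcaaacattaaa
Elovl6, mer8: cacgaaaaataATCGACAAaagaaaaatgg
Cbln3, mer7m8: ccctactcttgATCGACAtgtagttcctcc
Tfap2a, a developmental transcription factor, was at 0.494, 0.387, 0.2 and 1.17 CPM with D3, below the mock range of 1.46 to 2.90 CPM (median 1.95), a log2 fold change of −1.82 ± 0.43 (adjusted p = 0.00123) that rests on 1 to 6 counts a library. Cbln3, a secreted cerebellin-family protein, was at 2.72, 0.58, 1.6 and 0.587 CPM, and 1 of its D3 libraries lay within the mock range of 1.74 to 4.61 CPM (−1.28 ± 0.36, adjusted p = 0.00538). Tubb6, a beta-tubulin, fell from a mock median of 275 CPM to between 136 and 157 CPM (−0.96 ± 0.06, adjusted p = 3.6e-16), with no overlap, but its mer8 match lies in coding sequence of the canonical transcript and in the 3′-UTR of another annotated transcript only. Elovl6 is described with the lipid genes.

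The 12 largest falls among genes with at least 10 CPM in the higher group and no overlap with mock held Hao1, Elovl6 and 10 genes without a guide seed match or without an annotated 3′-UTR. Msmo1, the sterol C4-methyl oxidase of cholesterol synthesis (chr8:65170603-65186830, minus strand), was at 132, 128, 108 and 115 CPM with D3. In mock its lowest, median and highest levels were 421, 505 and 524 CPM. Every D3 library thus held well under the lowest mock level, and the log2 fold change was −2.02 ± 0.06 (adjusted p = 7.53e-24). The longest run of Msmo1 mRNA complementary to the guide was 7 bases, a length that 88.7% of 10724 tested mRNAs reach. Trdc, the constant region of the T-cell receptor delta chain, was at 32.1 to 37.0 CPM against 80.4 to 123 CPM in mock (−1.68 ± 0.11, adjusted p = 8.02e-10), while the lymphocyte and neutrophil markers summed to 0.988 to 3.13 CPM with D3 and 0.584 to 5.46 CPM in mock. Onecut2, a transcription factor of liver development, was at 109, 87.8, 94.6 and 91.6 CPM, below the mock range of 219 to 313 CPM (−1.53 ± 0.11, adjusted p = 4.96e-07).

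Fgfbp1, a secreted carrier of fibroblast growth factors, was at 72.8, 47.2, 53.9 and 46.2 CPM against a mock range of 135 to 160 CPM (−1.45 ± 0.09, adjusted p = 3.83e-11). Cdh17, an intestinal-type cadherin, was at 92.9, 68.9, 96.2 and 85.5 CPM against 187 to 267 CPM (−1.42 ± 0.11, adjusted p = 2.25e-07). Erfe, erythroferrone, a hormone that lowers hepcidin, fell by 1.33 on the log2 scale (adjusted p = 4.28e-05), from a mock median of 65 CPM to 20.4 to 35.1 CPM. None of these 3 overlapped mock. Sri, the calcium-binding protein sorcin, was at 45.3 to 50.4 CPM against 97.8 to 134 CPM in mock (−1.28 ± 0.07, adjusted p = 3.38e-17), and Lrrc14b, a leucine-rich repeat protein, fell by 1.27 (adjusted p = 6.59e-08). The mitotic genes Ccnb2 and Cdc20, also among the 12, are given with the cell cycle.

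The 12 largest rises were taken by the same rule, with at least 10 CPM in the higher group and no overlap with mock. Hamp, hepcidin, the peptide hormone that limits iron export, was at 16.8, 28.6, 12.6 and 17.8 CPM with D3 against a mock range of 1.16 to 7.89 CPM (median 3.36). The groups did not overlap, although mock itself spread widely, and the log2 fold change was 2.31 ± 0.37 (adjusted p = 0.000653). Bmp4, a bone morphogenetic protein, rose by 1.5 ± 0.17 (adjusted p = 4.23e-09), from 3.77 to 9.09 CPM in mock to 14.8 to 21.7 CPM. Vcan, the matrix proteoglycan versican, was at 14.1, 13.9, 11.4 and 14.7 CPM, above all mock libraries (1.05 to 4.96 CPM), with a log2 fold change of 2.21 ± 0.21 (adjusted p = 6.44e-11). Col4a5 and Col4a2, chains of the basement membrane collagen IV, rose by 1.85 ± 0.11 (adjusted p = 5.9e-16) and 1.45 ± 0.05 (adjusted p = 6.82e-25), in that order. Col4a1, another chain but not among the 12, rose by 1.02 ± 0.05 (adjusted p = 5.07e-17). Col4a2 (chr8:11362471-11499287, plus strand) was at 766, 776, 733 and 678 CPM against 236 to 288 CPM in mock.

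Itgb4, an integrin subunit that binds laminin, was at 11.6, 11.4, 16.2 and 14.1 CPM against 2.32 to 5.54 CPM in mock (1.81 ± 0.19, adjusted p = 6.43e-10). St14, the membrane protease matriptase, rose by 1.41 (adjusted p = 2.72e-08), and Efemp1, a matrix protein of the fibulin family, by 1.47 (adjusted p = 4.85e-08). Spp1, osteopontin, was at 40.7 to 54.0 CPM against 12.6 to 24.7 CPM (1.33 ± 0.15, adjusted p = 1.64e-06). Fam43a rose by 1.61 (adjusted p = 2.3e-08), and Rnf167, a ubiquitin ligase of endosomal membranes, by 1.38 (adjusted p = 1.99e-11). Btg2, an antiproliferative immediate early gene, was at 227, 289, 263 and 260 CPM against 82.6 to 113 CPM (1.3 ± 0.07, adjusted p = 2.07e-15). None of the genes in this paragraph overlapped mock.

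**Figure D3:**
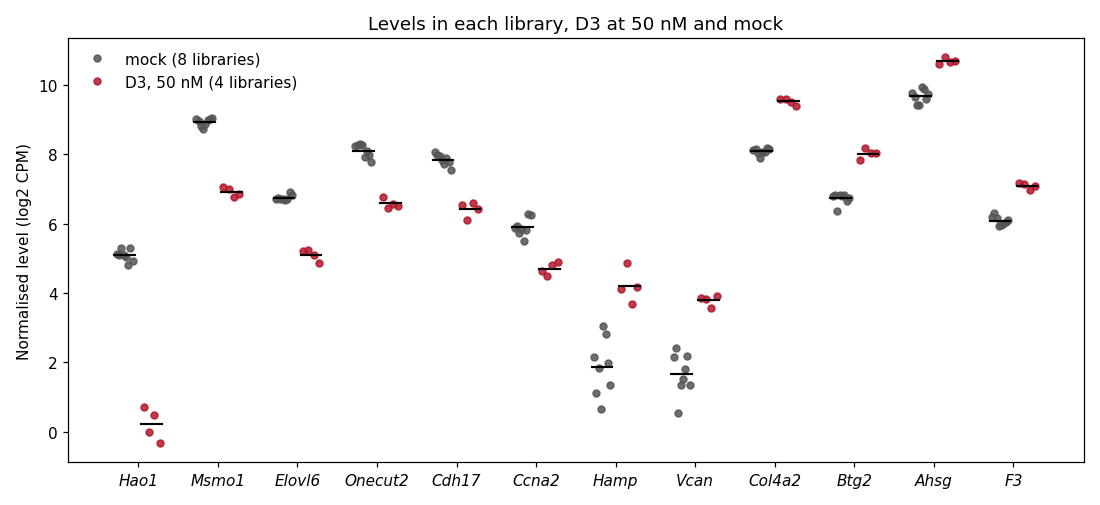
Normalised level in log2 CPM (vertical axis) of 12 genes in each of the 8 mock and 4 D3 libraries at 50 nM, 1 point a library, with the mean as a line. For each of the 12 genes the D3 libraries lie wholly below (Hao1 to Ccna2) or wholly above (Hamp to F3) all mock libraries. The spread is widest for Hamp and Vcan in mock and for Hamp and Hao1 with D3.

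Genes were then grouped by pathway. The counts of a list are read against all genes tested, of which 13.5% were higher and 14.8% lower, 6.5% above mock without overlap and 8.34% below it. Of 25 genes of cholesterol synthesis and uptake tested, 17 were lower and 0 higher, with a median log2 fold change of −0.26 against 0.01 over all genes, and 11 lay below mock without overlap. Msmo1 stood far from the rest of the pathway. The next largest falls were those of Pmvk, phosphomevalonate kinase (−0.64, adjusted p = 4.11e-06), and Lss, lanosterol synthase (−0.62, adjusted p = 3.42e-10), which holds a mer7m8 match. Insig1, which retains the sterol sensor in the endoplasmic reticulum, fell by 0.59 (adjusted p = 2.26e-07), and Acat2, which makes acetoacetyl-CoA, fell by 0.57 (adjusted p = 2.76e-08). Srebf2, the transcription factor that drives these genes, was at 157 to 176 CPM against 129 to 173 CPM in mock, and overlapped it (0.08 ± 0.06, adjusted p = 0.352).

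In fatty acid and triglyceride synthesis 11 of 28 genes were lower and 2 higher, with a median of −0.13. Elovl6 (chr3:129326004-129432144, plus strand), which elongates palmitate to stearate, was at 36.6, 37.1, 34.1 and 28.9 CPM with D3. The mock range was 102 to 119 CPM with a median of 105, so no library overlapped, and the log2 fold change was −1.65 ± 0.07 (adjusted p = 7.87e-21). It was the only one of the 5 largest falls of this list with a guide match. Fads1, a desaturase of polyunsaturated fatty acids, fell by 0.56 (adjusted p = 5.52e-08), Lpin1, a phosphatidate phosphatase, fell by 0.53 (adjusted p = 4.29e-07), and Acss2, which activates acetate, fell by 0.47 (adjusted p = 4.65e-05). Acsl3, an acyl-CoA synthetase, fell by 0.43 (adjusted p = 0.000271), with 3 of 4 D3 libraries below mock. Srebf1, the transcription factor of lipogenesis, was higher, with 3 of 4 libraries above mock (0.26 ± 0.07, adjusted p = 0.00593).

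Cell cycle genes were lower as a group: 27 of 30 fell and 2 rose, with a median of −0.70, and 23 lay below mock without overlap. Ccnb2, cyclin B2, was at 5.43, 4.06, 6.19 and 5.87 CPM against 8.10 to 21.3 CPM in mock (−1.35 ± 0.20, adjusted p = 2.43e-06). Cdc20, an activator of the anaphase-promoting complex, was at 10.6, 9.48, 12 and 12.1 CPM against 22.3 to 34.7 CPM (−1.32 ± 0.13, adjusted p = 1.82e-10). Ccna2, cyclin A2, was at 24.4, 22.1, 27.5 and 29.3 CPM against 44.9 to 77.4 CPM (−1.22 ± 0.14, adjusted p = 2.01e-06), and Ccnb1, cyclin B1, fell by 1.17 (adjusted p = 1.45e-06). These 4 genes act in S phase, G2 and mitosis, and no D3 library overlapped mock. The 2 genes that rose are D-type cyclins of G1. Ccnd1 was at 635 to 757 CPM against 396 to 556 CPM (0.64 ± 0.06, adjusted p = 6.46e-09), and Ccnd2 at 4.69 to 8.02 CPM against 1.35 to 4.25 CPM (1.41 ± 0.26, adjusted p = 4.27e-05). In bulk RNA, fewer cells in a state and less RNA per cell cannot be told apart.

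**Figure D4:**
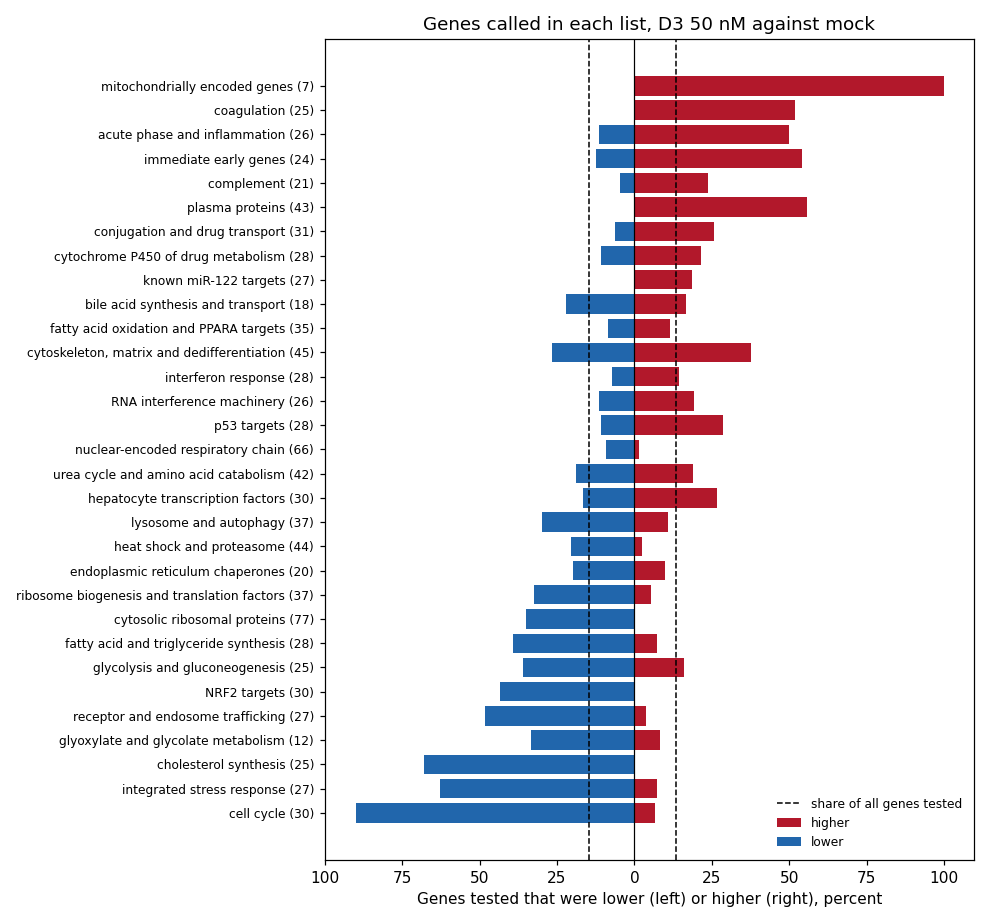
Percent of genes tested that were called lower (left) or higher (right) with D3 at 50 nM against mock, for 31 gene lists ordered by median log2 fold change, with the number tested in brackets. Cell cycle (27 of 30 lower), the integrated stress response (17 of 27) and cholesterol synthesis (17 of 25) extend farthest to the left, and all 7 mitochondrially encoded genes tested and 24 of 43 plasma protein genes lie to the right.

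Amino acid and oxidative stress genes were also lower. In the integrated stress response, the program of the factor Atf4, 17 of 27 genes fell and 2 rose, with a median of −0.32. Phgdh, the first enzyme of serine synthesis, was at 73.6, 62.3, 64.1 and 66.5 CPM against 123 to 147 CPM (−1 ± 0.07, adjusted p = 3.35e-15). Chac1, which degrades glutathione, fell by 1 (adjusted p = 3.57e-07), Nupr1, a stress-induced nuclear protein, fell by 1.08 (adjusted p = 0.000109), and Mthfd2, of mitochondrial folate metabolism, fell by 0.81 (adjusted p = 6.44e-11). Atf4 was at 198 to 209 CPM against 228 to 269 CPM in mock, without overlap (−0.32 ± 0.05, adjusted p = 3.52e-06). Of 30 targets of the oxidative stress factor NRF2, 13 fell and 0 rose (median −0.17). Slc7a11, the cystine transporter held by both lists, was at 161 to 217 CPM against 253 to 381 CPM (−0.76 ± 0.13, adjusted p = 0.00112). Gclc, which makes the glutathione precursor, fell by 0.62 (adjusted p = 7.98e-05), Ugdh, which makes UDP-glucuronate, fell by 0.74 (adjusted p = 2.45e-05), and Gsta1, a glutathione transferase with close paralogs that share reads, fell by 0.90 (adjusted p = 7.22e-09).

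Of 27 genes of receptor and endosome trafficking, 13 fell and 1 rose (median −0.18). Eea1, an early endosome tether, was at 125 to 136 CPM against 175 to 230 CPM (−0.59 ± 0.07, adjusted p = 5.02e-08), and Vps35, of the retromer complex, at 307 to 326 CPM against 444 to 492 CPM (−0.57 ± 0.04, adjusted p = 8.53e-13). The 1 gene that rose is Asgr1, a subunit of the asialoglycoprotein receptor that takes up GalNAc conjugates, at 5.67 to 8.12 CPM against 2.13 to 4.63 CPM (0.96 ± 0.22, adjusted p = 0.000846). In lysosome and autophagy 11 of 37 genes fell and 4 rose (median −0.06), with Gpnmb, a lysosomal glycoprotein, at 21.2 to 24.4 CPM against 44.0 to 59.3 CPM (−1.12 ± 0.09, adjusted p = 3.26e-12). Sqstm1, the autophagy receptor p62, fell by 0.81 (adjusted p = 8.89e-06) and Atp6v0d1, of the proton pump, fell by 0.65 (adjusted p = 9.33e-12). Of 77 cytosolic ribosomal protein genes, 27 fell and 0 rose (median −0.13). Rpl5, of the large subunit, stood apart from the others at 182 to 202 CPM against 305 to 375 CPM (−0.83 ± 0.05, adjusted p = 4.13e-16), followed by Rpl12 at −0.37 (adjusted p = 1.51e-07).

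Genes of the plasma protein and coagulation lists shifted the other way. Of 43 plasma protein genes 24 rose and 0 fell, with a median of 0.17, and 12 lay above mock without overlap. Ahsg, fetuin-A, was at 1561, 1781, 1628 and 1657 CPM with D3 against 681 to 992 CPM in mock (1.01 ± 0.10, adjusted p = 9.29e-06). Ttr, transthyretin, was at 928 to 1006 CPM against 539 to 719 CPM (0.56 ± 0.05, adjusted p = 4.54e-10). Apom, an apolipoprotein, rose by 0.29 (adjusted p = 0.00845), as did Serpinf1, an antiangiogenic serpin, by 0.28 (adjusted p = 0.000504). In coagulation and fibrinolysis 13 of 25 genes rose and 0 fell (median 0.27). F3, tissue factor, which starts clotting, was at 143, 141, 125 and 134 CPM against 61.2 to 78.2 CPM (1.02 ± 0.06, adjusted p = 4.13e-16). Plat, the tissue plasminogen activator, rose by 0.75 (adjusted p = 0.000199), F5, clotting factor V, by 0.67 (adjusted p = 0.000614), and Fgg, the fibrinogen gamma chain, by 0.48 (adjusted p = 5.19e-08).

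The acute phase list was mixed in its members: 13 of 26 rose and 3 fell (median 0.21). Steap4, a metalloreductase, was at 47.4, 49.3, 53.9 and 45.8 CPM against 18.1 to 27.8 CPM (1.14 ± 0.10, adjusted p = 4.59e-12). Crp, C-reactive protein, fell to 1.6 to 3.70 CPM from 4.25 to 8.76 CPM (−1.45 ± 0.25, adjusted p = 1.58e-05), and Il1rn, an antagonist of interleukin-1, fell by 0.71 (adjusted p = 0.000665). Complement genes showed 5 higher (23.8%) and 1 lower (4.76%) of 21 (median 0.18), with Masp1, a lectin-pathway protease, up by 0.68 (adjusted p = 1.15e-05) and C8a, of the membrane attack complex, at −0.71 (adjusted p = 2.48e-05).

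Of 24 immediate early genes 13 rose and 3 fell (median 0.21). Besides Btg2, Fos was at 8.89 to 13.7 CPM against 4.15 to 7.91 CPM (0.90 ± 0.18, adjusted p = 0.000146) and Dusp6, a phosphatase that acts on ERK, at 155 to 170 CPM against 86.6 to 125 CPM (0.63 ± 0.06, adjusted p = 1.78e-09), both without overlap. Klf4 rose by 0.52 (adjusted p = 0.00254), and Fosl1, another member of the AP-1 family, fell by 0.53 (adjusted p = 0.000115). Genes of cytoskeleton, matrix and dedifferentiation moved both ways, with 17 of 45 higher and 12 lower (median 0.05). Sox4, a transcription factor of progenitor cells, was at 238, 227, 278 and 246 CPM against 94.2 to 136 CPM (1.15 ± 0.08, adjusted p = 2.4e-09).

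The labelled cell type was checked against its markers. Of 9 hepatocyte markers tested 8 rose and 0 fell (median 0.26), and their summed level was 25570 to 26770 CPM with D3 against 20010 to 24210 CPM in mock. Of 7 cholangiocyte (bile duct cell) markers tested, of 10 listed, 5 rose and 1 fell (median 0.57), with a summed level of 496 to 534 CPM against 374 to 436 CPM. Without overlap, 4 of them lay above mock and 1 below it, so the markers did not all move together. Those named next are among the 5 that rose. Epcam, an epithelial adhesion molecule, was at 8.15, 7.35, 8.38 and 7.63 CPM against 0.584 to 2.82 CPM (2.15 ± 0.25, adjusted p = 7.12e-09). Sox9 rose by 0.58 (adjusted p = 5.43e-05) and Krt7 by 0.57 (adjusted p = 0.023), the latter with 3 of 4 libraries above mock. The part of cholangiocytes in the rises of Spp1 and other matrix genes was not tested. Markers of macrophages summed to 12.3 to 19.7 CPM with D3 and 16.2 to 23.1 CPM in mock, and those of endothelial cells to 3.70 to 6.59 CPM and 3.12 to 7.73 CPM. Stellate cell markers summed to 8.89 to 17.6 CPM against 14.9 to 27.1 CPM, and Reln, the 1 of 10 with enough counts, fell by 0.83 (adjusted p = 8.94e-05).

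All 7 mitochondrially encoded genes tested rose, with a median of 0.28, for example mt-Nd2, a subunit of complex I, at 2834 to 3066 CPM against 2292 to 2638 CPM (0.31 ± 0.04, adjusted p = 3.74e-07), whereas of 66 nuclear respiratory chain genes 1 rose (1.52%) and 6 fell (9.09%), below the 13.5% and 14.8% of all genes (median 0.00). Conjugation and drug transport had 8 higher (25.8%) and 2 lower (6.45%) of 31 (median 0.13), led by the sulfotransferase Sult1a1 at 87.9 to 99.0 CPM against 33.6 to 62.3 CPM (1.07 ± 0.13, adjusted p = 1.74e-05). Ugt2b36, a glucuronosyltransferase with close paralogs, rose by 0.94 (adjusted p = 1.23e-08). Drug-metabolising P450 genes had 6 higher (21.4%) and 3 lower (10.7%) of 28 (median 0.11), with Cyp2a5 at −1 (adjusted p = 0.00515). In bile acid synthesis and transport 3 of 18 rose (16.7%) and 4 fell (22.2%, median 0.07), with the transporter Slco1a1 at −1.16 (adjusted p = 3.24e-05) and the hydroxylase Cyp7b1 at 0.99 (adjusted p = 0.0123, 0.292 to 2.94 CPM in mock).

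Hepatocyte transcription factors split into 8 higher (26.7%) and 5 lower (16.7%) of 30 (median −0.03). Cebpd rose by 0.95 (adjusted p = 7.33e-06), Onecut2 fell as given above, and Hnf4a, the central factor of hepatocyte identity, was at 220 to 256 CPM within the mock range of 208 to 284 CPM (−0.06 ± 0.06, adjusted p = 0.544). Urea cycle and amino acid catabolism had 8 higher and 8 lower of 42 (19% each, median −0.02), with Aass, of lysine breakdown, at 1.02 (adjusted p = 0.000105) and Tat, tyrosine aminotransferase, at −0.84 (adjusted p = 0.00148). Fatty acid oxidation had 4 higher (11.4%) and 3 lower (8.57%) of 35, both shares below those of all genes (median 0.05), with Hadh, of the beta-oxidation spiral, at 0.44 (adjusted p = 1.21e-06). Glycolysis and gluconeogenesis had 4 higher (16%) and 9 lower (36%) of 25 (median −0.15), and glyoxylate metabolism, the pathway of Hao1, 1 higher (8.33%) and 4 lower (33.3%) of 12 including Hao1 (median −0.18).

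Of 37 genes of ribosome biogenesis and translation 2 rose (5.41%) and 12 fell (32.4%, median −0.10). Heat shock and proteasome had 1 higher (2.27%) and 9 lower (20.5%) of 44 (median −0.06), and endoplasmic reticulum chaperones 2 higher (10%) and 4 lower (20%) of 20 (median −0.09), with Herpud1, of protein degradation at that membrane, at −0.35 (adjusted p = 1.34e-05). Of 28 p53 targets 8 rose (28.6%) and 3 fell (10.7%, median 0.04), and Ei24, of the endoplasmic reticulum, fell by 0.64 (adjusted p = 2.94e-11). Of 26 RNA interference genes 5 rose (19.2%) and 3 fell (11.5%, median 0.04), led by Pan2, of the deadenylase complex, at 53 to 57.1 CPM against 25.7 to 43.4 CPM (0.54 ± 0.09, adjusted p = 2.43e-05).

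Interferon response genes showed 4 higher (14.3%) and 2 lower (7.14%) of 28, near and below the 13.5% and 14.8% of all genes (median 0.05). None of the 28 separated from mock without overlap, which 6.5% (above) and 8.34% (below) of all genes did. Cxcl10, an interferon-induced chemokine, was at 6.67, 6.38, 23.3 and 11 CPM, with 1 D3 library inside the mock range of 1.45 to 6.40 CPM (1.86 ± 0.43, adjusted p = 0.00752). Rsad2, the antiviral enzyme viperin, was at 62.7, 168, 187 and 255 CPM against 58.3 to 114 CPM (1.13 ± 0.31, adjusted p = 0.0183), a wide spread in which replicate 1 lay inside mock. Irf7, a regulator of type I interferon, fell by 0.77 (adjusted p = 0.0196). The calls of Rsad2, Irf7, Krt7, Tat, F5, Klf4, Apom and Srebf1 were each lost under at least 1 of 20 processing alternatives, with adjusted p-values up to 0.274 for Rsad2.

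MicroRNA target genes were examined because an siRNA shares Argonaute proteins with cellular microRNAs. The seeds of 2 of them are shown, with positions 2 to 8 in capitals, from RefSeq.
let-7a-5p: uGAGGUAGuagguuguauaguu
miR-29a-3p: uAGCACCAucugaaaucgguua
Of the 1582 genes with a let-7 match (CTACCTC), 292 (18.5%) were higher and 198 (12.5%) lower, with a median of 0.05. With a miR-29 match (TGGTGCT), a set added after the data were seen, 399 (17.5%) of 2276 were higher and 304 (13.4%) lower (median 0.04). With a miR-122 match (ACACTCC) 226 (16.7%) of 1356 were higher and 183 (13.5%) lower (median 0.04), and with a match to positions 2 to 8 of the passenger 296 (14.9%) of 1988 were higher and 325 (16.3%) lower (median 0.01). Across all genes with a 3′-UTR these shares were 14% and 15.2%, with a median of 0.01. Of 27 known miR-122 targets 5 rose (18.5%) and 0 fell (median 0.11), among them Smarcd1, of a chromatin remodelling complex, by 0.54 (adjusted p = 0.000215) and Tgfbr1, a receptor of TGF-beta, by 0.44 (adjusted p = 0.000166). Matches to let-7, miR-29, miR-122 and the passenger were held by 14.8%, 21.2%, 12.7% and 18.6% of all tested 3′-UTRs, and a gene can hold several.

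The response at 50 nM was set beside that at lower doses of D3. Against D3 at 10 nM, 3 of 11145 genes (0.0269%) were called, 2 (0.0179%) higher and 1 (0.00897%) lower at 50 nM, and 937 had an unadjusted p under 0.05. The count was 0 to 22 with 1 library left out and 32 with DESeq2. Libraries at 10 nM differed more from each other than those at 50 nM. Chi-square divided by its degrees of freedom was 1.96 to 8.01 between pairs at 10 nM and 2.20 to 3.79 at 50 nM. The low count therefore does not show that the 2 doses were alike. Btg2 was higher at 50 nM by 0.40 (adjusted p = 0.0283), Steap4 was higher by 0.57 (adjusted p = 0.0237), and Tubb6 was lower (−0.34, adjusted p = 0.0237). Msmo1 was at 489 ± 38.8 CPM in mock (SD, n = 8), and with D3 at 512 ± 50.4, 346 ± 47.5, 160 ± 21.2 and 121 ± 11.2 CPM at 0.1, 1, 10 and 50 nM (SD, n = 4 each). Col4a2 was at 271 ± 17.1 CPM in mock and 300 ± 28, 363 ± 34.5, 663 ± 43.4 and 738 ± 44.1 CPM at the same doses. Ccna2 was at 60.2 ± 11.2 CPM in mock and 68.7 ± 8.78, 49.5 ± 15.8, 32.2 ± 7.09 and 25.9 ± 3.24 CPM. Between 10 and 50 nM the differences of these 3 genes did not pass the test (log2 fold changes of −0.40 for Msmo1, 0.16 for Col4a2 and −0.31 for Ccna2). Hao1 was at 0.809 ± 0.35 CPM at 10 nM and 0.801 ± 0.385 CPM at 50 nM, and was below the filter on low counts for a test.

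**Figure D5:**
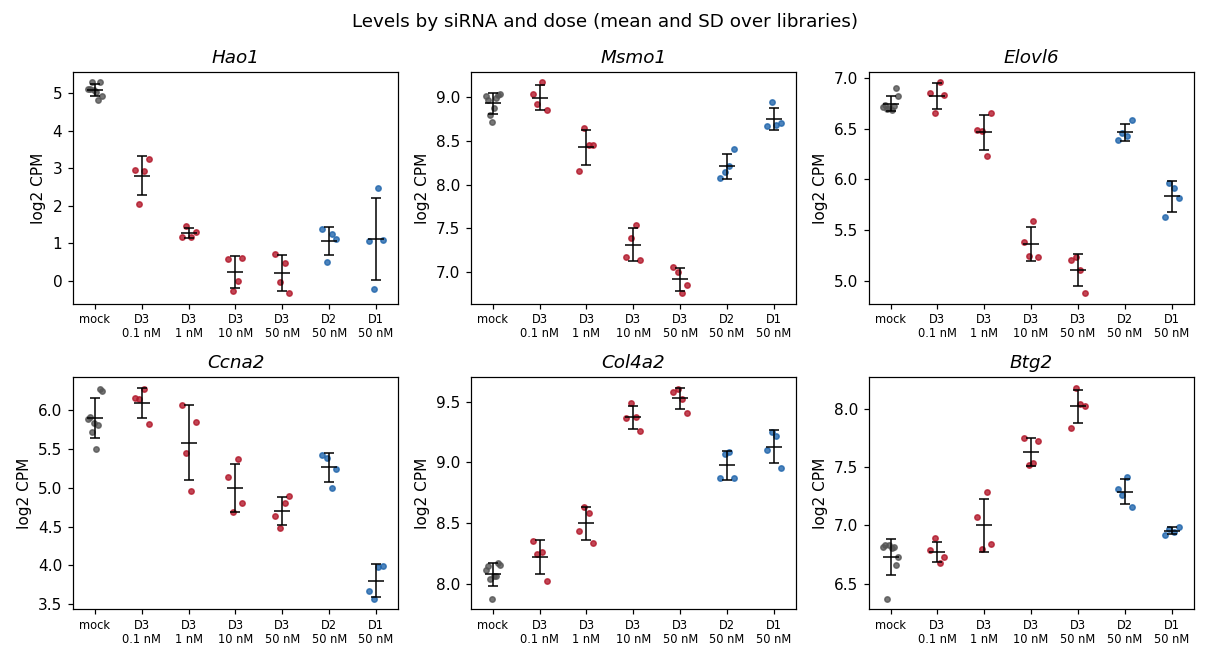
Levels in log2 CPM (vertical axis) of 6 genes by siRNA and dose, 1 point a library, with mean and SD (8 mock libraries, 4 in each other group). Msmo1 with D3 goes from a mean of 512 CPM at 0.1 nM to 121 CPM at 50 nM, below the means with D2 (297 CPM) and D1 (432 CPM) at 50 nM, whereas Ccna2 is lowest with D1.

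Compared with the parent siRNA D1 at the same dose of 50 nM, which has no GNA at guide position 5, D3 differed in 2637 of 11078 genes (23.8%), 1253 (11.3%) higher and 1384 (12.5%) lower. Since both comparisons use the D3 libraries, their values are given side by side only. Msmo1 was at 432 ± 40.2 CPM with D1 (SD, n = 4), and was lower with D3 (−1.85 ± 0.07, adjusted p = 2.16e-18). Onecut2 was lower than with D1 (−1.21, adjusted p = 3.83e-14) and Sri (−1.25, adjusted p = 9.57e-14). Dnajc5, a co-chaperone of vesicle fusion that fell by 0.64 against mock (adjusted p = 1.63e-14), was lower (−0.74, adjusted p = 1.03e-12). Higher with D3 than with D1 were Igfbp3, a carrier of insulin-like growth factors, by 1.57 (adjusted p = 7.34e-19), Id2, an inhibitor of helix-loop-helix factors, by 1.31 (adjusted p = 3.83e-14), and Ccnd1 by 0.95 (adjusted p = 9.57e-14). Against mock Igfbp3 rose by 0.71 (adjusted p = 8.4e-13) and Id2 by 0.54 (adjusted p = 3.07e-08).

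Several of the clearest differences from D1 were in genes near the mock level with D3. Rps25, a ribosomal protein, was at 251 to 271 CPM with D3, inside the mock range of 226 to 287 CPM, and was higher than with D1 by 1.18 (adjusted p = 1.78e-15). Ccl2, a monocyte chemokine, was lower than with D1 (−0.92, adjusted p = 1.13e-13) and at −0.02 against mock (adjusted p = 0.834). The same held for Creb5, a transcription factor, at −1.01 against D1 (adjusted p = 2.83e-13) and −0.13 against mock (adjusted p = 0.119). Maea, of a ubiquitin ligase complex, and Actg1, a cytoplasmic actin, both hold a mer7m8 match and were higher with D3 than with D1, by 1.44 (adjusted p = 1.91e-14) and 1.61 (adjusted p = 8.9e-17). Against mock they were lower, at −0.25 (adjusted p = 0.000701) and −0.52 (adjusted p = 6.51e-10).

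Counts by list against D1 are read against the 11.3% higher and 12.5% lower of all genes. In the cell cycle 19 of 30 genes were higher with D3 than with D1 and 1 lower. Ccna2 was at 13.7 ± 2.06 CPM with D1 and higher with D3 by 0.90 (adjusted p = 1.01e-05), and Cdh17, at 33.5 ± 3.08 CPM with D1, was higher with D3 by 1.34 (adjusted p = 3.12e-11). In the integrated stress response 14 of 27 genes were lower with D3 than with D1 and 1 higher. Sqstm1 was at 1088 ± 87.4 CPM with D3 and 2113 ± 362 CPM with D1 (−0.97 ± 0.12, adjusted p = 0.000687). In cholesterol synthesis 11 of 25 genes were lower and 2 higher, in the NRF2 list 10 and 1 of 29, and in receptor and endosome trafficking 13 and 1 of 27. Phgdh, at 66.6 ± 4.96 CPM with D3 and 69.3 ± 11.6 CPM with D1, was not called, with a 95% interval of the log2 difference from −0.27 to 0.14. Col4a1 was not called either (871 ± 65.3 and 820 ± 44.2 CPM, interval −0.04 to 0.19), whereas Col4a2 was higher with D3 by 0.38 (adjusted p = 1.84e-05).

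Against D2, which carries GNA-C in place of GNA-isoC, 1093 of 11137 genes (9.81%) differed at 50 nM, 429 (3.85%) higher and 664 (5.96%) lower with D3. Elovl6 was at 34.2 ± 3.73 CPM with D3 and 88.0 ± 5.24 CPM with D2 (SD, n = 4 each), a log2 difference of −1.36 ± 0.09 (adjusted p = 1.08e-14). Msmo1 was lower (−1.3, adjusted p = 1.08e-14), from 297 ± 30.4 CPM with D2, and Onecut2 (−1.23, adjusted p = 5.27e-16). Slc7a2, a cationic amino acid transporter, was lower (−0.95, adjusted p = 2.57e-12), Lpin1 (−0.76, adjusted p = 4.05e-12) and Tnfrsf22, a decoy receptor for TRAIL, (−0.73, adjusted p = 1.43e-11). Sox4 was higher with D3 by 0.81 (adjusted p = 4.01e-12), Btg2 by 0.74 (adjusted p = 2.87e-10), F3 by 0.64 (adjusted p = 4.26e-08) and Ccnd1 by 0.62 (adjusted p = 1.97e-10).

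The collagen IV genes were also higher with D3 than with D2, Col4a2 by 0.55 (adjusted p = 2.84e-09) and Col4a1 by 0.48 (adjusted p = 1.03e-07). Of all genes 3.85% were higher and 5.96% lower with D3 than with D2. In cholesterol synthesis 20 of 25 genes were lower with D3 than with D2 and 0 higher, and in the integrated stress response 19 of 27 were lower and 1 higher. In fatty acid and triglyceride synthesis 12 of 27 were lower and 0 higher, in the NRF2 list 13 and 0 of 29, and in receptor and endosome trafficking 12 and 0 of 27. The cell cycle had 8 lower and 2 higher of 30. Of 43 plasma protein genes 2 were higher and 2 lower, and of 25 coagulation genes 4 were higher and 2 lower. Ahsg, at 1574 ± 189 CPM with D2, was not called, with an interval of the log2 difference from −0.06 to 0.21. Hao1 was at 1.74 ± 0.509 CPM with D2 and 2.25 ± 2 CPM with D1, against 0.801 ± 0.385 CPM with D3, on counts too low for the test.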

How the data were processed

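RNA was measured in primary mouse hepatocytes by stranded total RNA sequencing. Per the study's methods, the authors removed short and poor reads and used STAR for alignment to GRCm39. With featureCounts (2.0.2 in the submitters' processing notes) they then assigned reads with a unique alignment and a mapping quality of at least 10 to genes. The annotation and strand setting are not given in the sources used here. The deposited values are raw counts for 55416 genes and 92 ERCC spike-ins, as 2 sequencing runs per library. The deposited DESeq2 tables (version 1.32.0 in the same notes) hold mean counts, log2 fold changes, standard errors, statistics and p-values for each siRNA and dose against mock, and only their gene symbols were used.

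The runs of a library agreed within sampling noise (chi-square divided by its degrees of freedom 0.99 to 1.05, replicate pairs at least 1.67) and were summed. ERCC rows (0.453% to 1.20% of counts in the 24 libraries compared) were dropped. Those libraries held 3409963 to 5691251 gene counts, so a gene at 1 CPM rests on few counts. Tests used edgeR 4.0.16 in R 4.3.3 (TMM, filterByExpr, glmQLFit with robust estimation, glmQLFTest) on the 2 groups compared, with Benjamini-Hochberg adjustment over all genes tested and a threshold of 0.05. Levels are CPM with TMM factors over all libraries of the series, from genes with at least 0.5 CPM in 4 libraries, and log2 CPM used a prior count of 2. The scripts were tested on simulated data. 3′-UTRs, mRNAs and coordinates came from GENCODE (GRCm39), and microRNA sequences from RefSeq (GRCm38.p6).

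Members and gene lists were chosen with earlier results of these data known. Genes named are Hao1 and Gapdh, the 12 largest rises and 12 largest falls (adjusted p under 0.05, at least 10 CPM in the higher group, no overlap), up to 5 called genes with the largest change in each list and its central regulators, up to 4 seed-matched genes with the largest falls, and up to 6 genes a direction with the smallest adjusted p against D1 and D2. Marker genes are named to check the cell type. Alternatives were DESeq2 1.42.0 with betaPrior, RLE factors, all libraries in one fit, all genes with a count, each run alone, leaving out each library, a block for the replicate number, and mock without replicates 1, 2 and 8. For seed matches, the canonical transcript and a mean of at least 5 CPM were tried.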

Additional observations from a re-analysis of the deposited data

Results flagged for a closer look

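Levels of the named genes were checked for a library far from the others of its group, over 222 sets of a gene and a group (4 D3 or 8 mock libraries). Of these 15 had such a library, and chance flags about 1 in 20 groups. Values are log2 CPM. In the D3 group at 50 nM, Efemp1 was low in replicate 3 (3.32, the others 3.78 to 3.86), Gpnmb was low in replicate 1 (4.44, the others 4.61 to 4.63), Serpinf1 was high in replicate 2 (7.14, the others 6.98 to 7) and Creb5 was high in replicate 1 (6.5, the others all at 6.43).

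In mock, replicate 4 was low for Col4a2 (7.88, the others 8.04 to 8.17), Srebf2 (7.01, the others 7.28 to 7.44), Acsl3 (5.16, the others 5.45 to 5.69) and Ttr (9.08, the others 9.30 to 9.49). Replicate 6 was high for Acss2 (6.14, the others 5.74 to 5.93) and mt-Nd2 (11.37, the others 11.16 to 11.22). Replicate 8 was high for Tubb6 (8.4, the others 8.04 to 8.21) and low for Pan2 (4.71, the others 5.16 to 5.45). Btg2 was low in replicate 3 (6.38, the others 6.66 to 6.83), Apom in replicate 1 (4.68, the others 4.96 to 5.14) and Cyp7b1 in replicate 2 (−0.52, the others 0.79 to 1.74).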

How the results depend on the processing

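Against mock, 3209 genes were called, and 2366 to 3210 under DESeq2, RLE factors, all libraries in one fit, no filter or 1 run, with 2498 to 3293 when 1 library was left out. Against D1, 2637 were called, 2043 to 2625 with 1 library left out. It was 2018 with DESeq2, 1896 with run 1 alone and 1870 with run 2 alone. The comparison with D3 at 10 nM depended most on the processing: 3 genes became 32 with DESeq2, 84 with all genes with a count and 5 with run 2 alone, and 0 to 22 with 1 library left out, being 22 without D3 10 nM replicate 1, 7 without its replicate 3, 8 without D3 50 nM replicate 1 and 0 without its replicates 2, 3 or 4. The 1093 genes against D2 became 706 with run 1 and 705 with run 2 alone, at lower depth. They became 734 with DESeq2 and 777 to 985 with 1 library left out. The cause of the other differences was not tested.

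The correlations of same-numbered libraries with those of D3 at 50 nM, over 9886 genes, were −0.0345 to 0.106 for mock, 0.00459 to 0.123 for D3 at 10 nM, −0.0205 to 0.166 for D1 and 0.0158 to 0.0905 for D2. In no comparison were all 4 above 0.1, so the numbers were not taken to pair the libraries. Some libraries did correlate best with their own number. These were replicates 1 and 2 with D1 (0.166 and 0.107) and with D3 at 10 nM (0.123 and 0.082). The same held for replicates 2 and 3 with D2 (0.0856 and 0.0905) and replicate 4 with mock (0.106). With the replicate number as a block, 2795 genes were called against mock, 23 against D3 at 10 nM, 3064 against D1 and 1391 against D2. Mock libraries with a number that no D3 library carries do not bear on the difference in that fit. The block against mock thus compares 4 D3 with 4 mock libraries.

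None of 111 named genes reversed in an alternative that tested it. A named gene below the filter on low counts in an alternative was not counted as lost there. With run 1 and run 2 alone, 109 and 108 of the 111 were tested, and 110 or 111 in each other alternative. In 8 the call was lost in at least 1 of 20 alternatives, with adjusted p up to 0.274 for Rsad2, 0.149 for Krt7, 0.148 for Irf7, 0.139 for Tat, 0.168 for Apom (run 1), 0.0811 for F5 (replicate block), 0.0619 for Srebf1 and 0.0502 for Klf4 (both without D3 replicate 2). Of 33 list medians 13 moved by more than 1 SD over the D3 libraries with the replicate block, 10 with run 1 alone and at most 3 in each other alternative, and 7 changed sign in an alternative: RNA interference, bile acid, fatty acid oxidation, hepatocyte transcription factors, interferon, nuclear respiratory chain and urea cycle. The median of all genes stayed between 0.0006 and 0.0125. Depth limits Hao1, Tfap2a, Cbln3 and other genes of few counts.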
